A study of Mus musculus with 6 samples.

Results

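Cadherins and protocadherins were compared between wild-type (WT) and Mcm8 knockout (KO) mouse embryonic fibroblasts (MEFs) by bulk RNA sequencing. The group was taken by gene symbol alone, as the protein-coding genes named Cdh followed by a number, Pcdh followed by a number, or Pcdha, Pcdhb or Pcdhg, which gave 92 of the 55565 genes in the deposited table. Of these, 57 were clustered protocadherins (14 alpha, 22 beta and 21 gamma genes on chromosome 18) and 35 lay outside the clusters. Outside the clusters were 5 type I and 13 type II classical cadherins, 5 other cadherins, 4 delta-1 and 5 delta-2 protocadherins and 3 other protocadherins. MCM8 is a helicase of the minichromosome maintenance family that acts in homologous recombination.

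The MEFs were grown from trunks of E13.5 embryos obtained by crossing Mcm8+/- mice of mixed C57BL/6J and ICR background, with head, limbs, tail, heart and liver removed. WT was Mcm8+/+ and KO was Mcm8-/-, in which an exon of Mcm8 had been deleted and the reading frame shifted. MEFs of both genotypes were immortalised with the lentivirus SV40gp6 and selected with puromycin, and the methods call the 3 libraries of each genotype biological repeats without saying whether these were separate embryos, clones or cultures. P-values rest on a spread between these libraries that was fitted as a trend over all genes, and part or all of it may be technical. They may say nothing of the spread between embryos.

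Library totals were 12722979 to 19019695 counts in WT and 15954793 to 21022755 in KO. Values in groups of 3 are given in the order of the library numbers (WT1 to WT3, KO1 to KO3). Mcm8 itself had 176, 233 and 238 counts in the WT libraries and 89, 74 and 66 in the KO libraries. All 10 fibroblast markers were detected in each library, with a summed level of 25807 to 30262 counts-per-million (CPM) in WT and 29462 to 30285 CPM in KO. Most of that sum came from Col1a1, Col1a2, Fn1 and Vim, and Lum was low (1.18 CPM in WT, 1.72 CPM in KO). At an adjusted p below 0.05, 3 of the 10 were higher in KO and 4 lower, where 9.08% and 7.88% of all genes with at least 1 CPM were. The lower ones included Thy1, which was called (log2 fold change -1.03), Pdgfrb (-0.74) and Postn (-0.45). In bulk RNA, fewer cells of a type and less RNA per cell cannot be told apart.

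Cadherins are transmembrane adhesion proteins whose extracellular cadherin repeats bind calcium and pair with cadherins on neighbouring cells. Classical cadherins anchor the actin cytoskeleton through beta-catenin, alpha-catenin and p120-catenin, and the mix of classical cadherins on a cell helps decide which cells it adheres to. Delta protocadherins lack the catenin-binding tail and are known mainly from the nervous system. Clustered protocadherins are made from tandem arrays of promoters, each with its own large first exon; in the alpha and gamma clusters this exon is spliced to constant exons shared by the whole array, whereas beta genes have no constant exons. In neurons each cell uses only a few of these promoters, a choice that depends on CTCF, cohesin and DNA methylation.

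Of the 92 genes, 78 had counts in at least 1 library and entered the test, 44 had a mean of at least 1 CPM over the 6 libraries, and 14 had no count in any library. Genes were called where the change from WT to KO on the log2 scale was above 1 or below -1 and the Benjamini-Hochberg adjusted p over all 26898 genes tested was below 0.05 in edgeR's quasi-likelihood fit. Called higher in KO were 3 members, Pcdh17, Cdh6 and Cdh17, where 1.75% of all genes tested were called higher. Called lower were 2 members, Cdh4 and Pcdhac2, where 0.665% of all genes were called lower. Without the limit on size, 9 members were higher and 8 lower at an adjusted p below 0.05, against 4.97% and 4.03% of all genes tested. The 44 members with at least 1 CPM held 1 gene called higher and 2 called lower, against 2.54% and 1.04% of the 13222 genes at that level. At an adjusted p below 0.05, 7 of these were higher and 8 lower, where 9.08% and 7.88% of all genes at that level were. The KO libraries were all above WT for 17 members and all below WT for 12, where this held for 11.6% and 10.1% of all genes tested. The median log2 fold change of the 44 members was -0.08, and that of all genes at that level was -0.01.

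**Figure D1:**
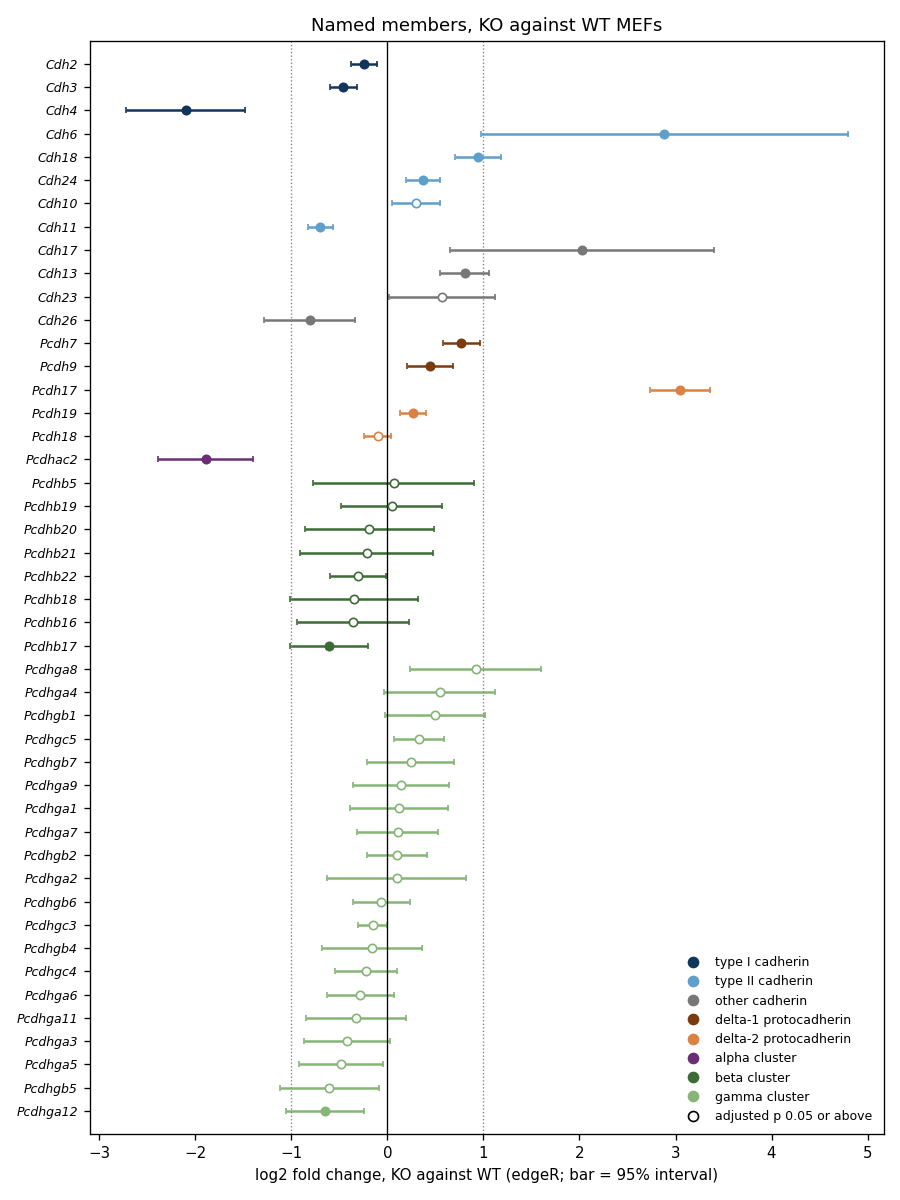
Log2 fold change (KO against WT, x axis) of the 46 members that were called or had a mean of at least 1 CPM (y axis, coloured by class), with bars of the 95% interval (normal, from the standard error) and open points where the adjusted p was 0.05 or above. Pcdh17 stands at 3.05, Cdh4 at -2.10 and Pcdhac2 at -1.90, and the points of the beta and gamma clusters all lie between the dotted lines at -1 and 1.

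Per unit of gene length, the counted cadherin RNA of these MEFs was made up mostly of a few genes. FPKM, the authors' read level scaled to gene length and library size, summed over all 92 members to 247.7 ± 16.4 in WT and 213.6 ± 2.49 in KO (SD, n = 3 each). In WT, Cdh11 held 27.7 ± 1.73% of that sum, Cdh3 18.4 ± 0.511%, Pcdh18 11.1 ± 0.335% and Cdh2 10.0 ± 0.559%. In KO, Cdh11 held 19.7 ± 0.0933%, Cdh3 15.5 ± 0.275%, Pcdh18 12.1 ± 0.186% and Cdh2 9.79 ± 0.0780%. The share of Pcdh19 was 9.37 ± 0.588% in WT and 13.1 ± 0.288% in KO, so that Pcdh19 was above Pcdh18 in each KO library and below it in each WT library. Its share and that of Cdh2 overlapped over the WT libraries, at 8.74% to 9.90% for Pcdh19 and 9.55% to 10.6% for Cdh2. Shares are parts of a whole, so that a smaller share of Cdh11 raises those of the other genes. FPKM divides by the full exonic length. Only 33.1% of the exonic bases of Pcdhgc3 belong to it alone, against 100% for Cdh11, Cdh3 and Cdh2. The median was 54.8% in the gamma and 46.4% in the alpha cluster. Where reads in shared exons went uncounted, levels and shares of these clustered genes are understated beside classical cadherins.

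Summed by class, the classical cadherins of types I and II stood at 148.0, 155.8 and 154.8 FPKM in WT and at 118.1, 114.2 and 114.2 FPKM in KO. The genotypes did not overlap, and the ratio of the means was -0.40 on the log2 scale. The delta protocadherins stood at 48.4, 59.9 and 57.4 FPKM in WT and at 62.0, 61.9 and 61.4 FPKM in KO, a log2 ratio of 0.16. Here the WT libraries spread widely and WT1 was the low library, without which the log2 ratio was 0.074. The clustered protocadherins had 29.9, 41.1 and 39.9 FPKM in WT and 33.3, 33.1 and 34.1 FPKM in KO, so that the KO values lay inside the WT range. The log2 ratio was -0.14, and -0.27 without WT1. The limit from shared exons also holds for the height of the clustered sums beside the other classes.

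**Figure D2:**
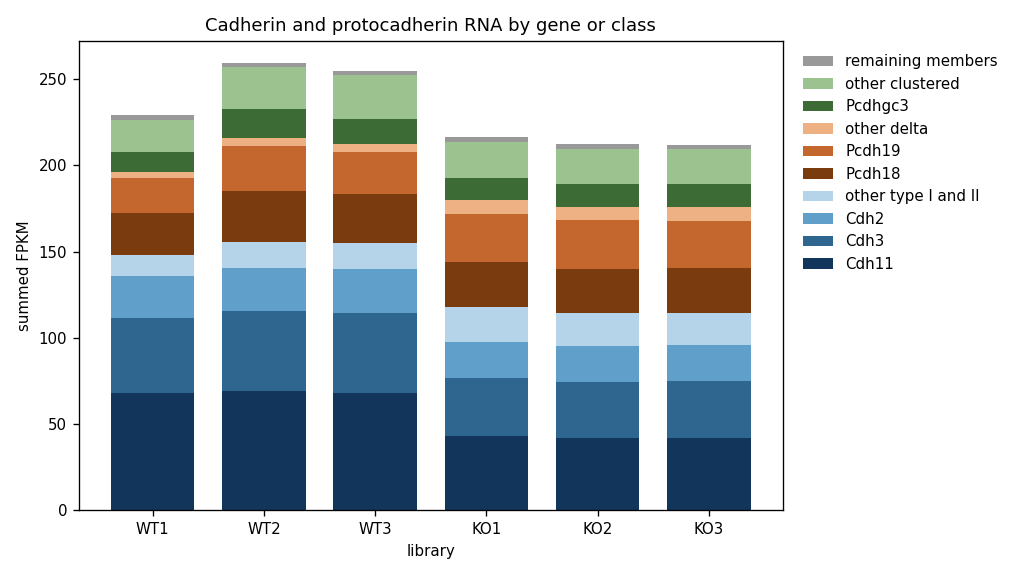
Stacked FPKM (y axis) of cadherin and protocadherin genes in each library (x axis), with the 6 genes of highest level drawn singly and the others by class. The dark Cdh11 block at the base is smaller in KO1, KO2 and KO3, and the WT1 column is lower than those of WT2 and WT3. Blocks of clustered genes may be understated where exons are shared.

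Among type I classical cadherins, all 3 genes with a mean of at least 1 CPM were lower in KO. Cdh4 encodes R-cadherin, first known from the retina, and lies on chromosome 2 (179084224 to 179541166, plus strand, GRCm39). It had 32, 46 and 88 counts in WT and 26, 12 and 7 in KO. Scaled to library size, each KO library was below each WT library. Its level was 3.50 ± 1.12 CPM in WT against 0.795 ± 0.400 CPM in KO, a log2 fold change of -2.10 (standard error 0.32, adjusted p = 2.16e-09, edgeR). A pseudogene on the opposite strand, Gm14300, overlaps Cdh4 and had 1, 1 and 2 counts in WT and none in KO. With each library left out in turn the log2 fold change was -2.59 to -1.82. Of 26 genes with counts within 1 Mb of Cdh4, Lama5 and Gm14292 were called higher and none lower. Mcm8 is on chromosome 2 as well, and the mice were of mixed background. Strain differences carried along with the deleted allele were not tested.

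Cdh3, which encodes P-cadherin, had 190, 204 and 206 CPM in the WT libraries and 148, 142 and 147 CPM in the KO libraries. The genotypes did not overlap, and Cdh3 fell by 0.46 on the log2 scale (standard error 0.07, adjusted p = 7.6e-09). Cdh2 encodes N-cadherin, the classical cadherin most often linked to mesenchymal cells. It had 197, 200 and 206 CPM in WT against 170, 169 and 169 CPM in KO, again without overlap. Its fold change was small, -0.25 on the log2 scale (standard error 0.07, adjusted p = 0.0085), and missed the threshold without KO1, KO2 or KO3 (-0.26 to -0.23 over all fits that left out a library).

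The other type I genes were close to the limit of detection. Cdh1, which encodes the epithelial E-cadherin, had 2, 0 and 0 counts in WT and 3, 5 and 10 counts in KO. The ratio of its summed counts per library total was 7.73 (95% exact interval 1.85 to 68.7, counting error only), and its adjusted p of 0.177 missed the threshold. Without WT1, which held both of the WT counts, Cdh1 was called higher (adjusted p = 0.0357). The muscle cadherin Cdh15 had 1, 3 and 7 counts in WT and 22, 8 and 11 in KO, with no overlap and an adjusted p of 0.117. Of the skeletal muscle markers, Myod1 and Pax7 had no count in any library, and the summed level of the 5 markers was 0 to 0.157 CPM in WT and 0 to 0.301 CPM in KO.

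Type II classical cadherins moved in both directions. Cdh11 encodes OB-cadherin, a cadherin of mesenchymal cells and bone-forming cells, and was at the top of the whole group in each library. It had 606, 617 and 613 CPM in WT against 385, 374 and 373 CPM in KO. The spread within a genotype was narrow beside the gap between them. Cdh11 fell by 0.70 on the log2 scale (standard error 0.07, adjusted p = 6.39e-24), to 0.616 of its WT level, which is short of the 2-fold limit. The log2 fold change was -0.71 to -0.68 with each library left out.

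Cdh18, a type II cadherin expressed in the brain, had 9.17, 11.4 and 11.4 CPM in WT against 20.8, 21.8 and 19.1 CPM in KO. All 3 KO libraries were above the WT libraries, with a log2 fold change of 0.94 (standard error 0.12, adjusted p = 1.76e-12). Cdh24 had 29.8, 37.9 and 37.0 CPM in WT against 48.7, 44.0 and 42.7 CPM in KO. It rose by a log2 fold change of 0.37 (standard error 0.09, adjusted p = 0.00103), and missed the threshold without KO1 (0.27 to 0.43 over the 6 fits). Its share of the summed FPKM was 4.01 ± 0.249% in WT and 6.03 ± 0.343% in KO. Cdh10 was at 12.4 ± 0.843 CPM in WT against 15.2 ± 1.06 CPM in KO, with no overlap but an adjusted p of 0.159.

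Cdh6, known as kidney cadherin, was called higher on few reads. It had 2, 0 and 1 counts in WT and 4, 16 and 8 counts in KO. Its ratio of summed counts per library total was 8.01 (95% exact interval 2.47 to 41.2, counting error only), with an adjusted p of 0.0373. WT was at the floor of 3 counts or fewer in every library, and the call was lost with DESeq2, with a test against a 2-fold change, with filterByExpr and with the replicate number as a block. It was also lost without WT2, WT3, KO2 or KO3, where the fitted log2 fold change over the 6 fits was 2.21 to 3.87. The endothelial Cdh5 (VE-cadherin) had no count in WT and 1 count in each KO library, and Cdh8, Cdh9, Cdh12, Cdh19 and Cdh20 had none in any library.

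Among the cadherins outside the classical types, Cdh13 encodes T-cadherin, which is held in the membrane by a glycolipid anchor and binds adiponectin. It had 8.62, 10.3 and 10.3 CPM in WT against 16.7, 19.2 and 15.5 CPM in KO. Each KO library was above each WT library, with a log2 fold change of 0.80 (standard error 0.13, adjusted p = 3.22e-08). Cdh26 had 4.86, 3.85 and 4.08 CPM in WT against 3.02, 2.64 and 1.5 CPM in KO, which is a log2 fold change of -0.81 (standard error 0.24, adjusted p = 0.0121). It missed the threshold with DESeq2 (adjusted p = 0.0843), with filterByExpr (0.0556) and without KO3 (0.243), and was called lower without KO1, at -1.03. Cdh26 lies 0.955 Mb from Cdh4 on chromosome 2. Of 19 genes with counts within 1 Mb of Cdh26, 2 were called higher and 3 lower, with Cdh4 among the 3. Cdh23, a component of the tip links of inner-ear hair cells, was at 1.96 ± 0.551 CPM in WT against 2.90 ± 0.190 CPM in KO, and did not pass the test (adjusted p = 0.261).

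Cdh17, the intestinal LI-cadherin, had 2, 5 and 1 counts in WT and 24, 10 and 8 counts in KO. The ratio of summed counts per library total was 4.51 (95% exact interval 2.09 to 11.1), and the adjusted p was 0.0451. As for Cdh6, the call was lost with DESeq2, the 2-fold test, filterByExpr and the replicate block, and without WT1, WT3, KO1 or KO2 (fitted log2 fold change 1.52 to 2.87 over the 6 fits).

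**Figure D3:**
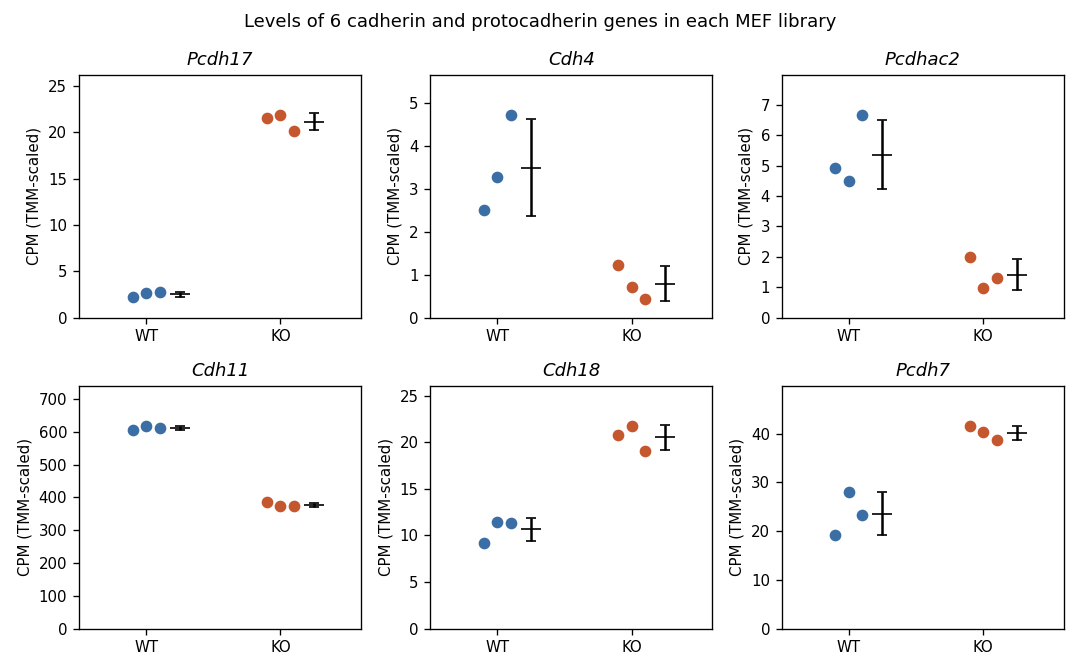
TMM-scaled CPM (y axes, from 0) of Pcdh17, Cdh4, Pcdhac2, Cdh11, Cdh18 and Pcdh7 in each WT and KO library (points), with the mean and SD of 3 libraries beside them. The genotypes do not overlap for any of these genes, and Pcdh17 goes from 2.19 to 2.74 CPM in WT to 20.1 to 21.8 CPM in KO.

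Among delta protocadherins was the gene with the largest log2 fold change of the 5 called members. Pcdh17, a delta-2 protocadherin known from axons and synapses of the basal ganglia circuits, lies on chromosome 14 (84681003 to 84776442, plus strand, GRCm39). It had 28, 37 and 51 counts in WT and 455, 363 and 322 in KO. The lowest KO library (20.1 CPM) was far above the highest WT library (2.74 CPM). The level was 2.52 ± 0.289 CPM in WT against 21.1 ± 0.906 CPM in KO, a log2 fold change of 3.05 (standard error 0.16, adjusted p = 1.04e-77) or 8.28-fold. It was 2.97 to 3.12 with each library left out, and the gene was called under every alternative run. None of the 11 other genes within 1 Mb had a count in any library, which includes the lncRNA 9630013A20Rik that overlaps Pcdh17 on the opposite strand.

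The other delta-2 genes differed from Pcdh17 in level and change. Pcdh19, an X-linked gene whose loss in humans is linked to epilepsy, had 210, 269 and 255 CPM in WT against 292, 298 and 291 CPM in KO. The KO libraries were all above WT, with a log2 fold change of 0.26 (standard error 0.07, adjusted p = 0.00259). The X-linked Xist, which silences an X chromosome, was at 940, 1359 and 1290 CPM in WT against 474, 494 and 475 CPM in KO, and its part in the Pcdh19 result was not tested. Pcdh18 was at 149 ± 14.5 CPM in WT against 139 ± 1.94 CPM in KO. Its log2 fold change of -0.10 had a 95% interval of -0.24 to 0.04, and it passed the threshold only in the fit without WT1 (-0.18, adjusted p = 0.00879). Pcdh10 had 5, 5 and 7 counts in WT and 21, 14 and 9 in KO (adjusted p = 0.316), and Pcdh8 had no count in any library.

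The start regions of 3 delta-2 genes are shown because these genes cover the span of the subfamily, from the gene called higher (Pcdh17) through that of highest CPM (Pcdh19) to that without counts (Pcdh8). Each is the 300-base window from RefSeq (GRCm38.p6, coordinates of that build) of 250 bases before and 50 after the annotated start, written 5′ to 3′ on the strand of the gene. Capitals mark the letters CCAAT and GGGCGG on either strand, so that ATTGG and CCGCCC are the same motifs read on the other strand, and no marked motifs overlap.
Pcdh17 (chr14:84443313-84443612, plus strand): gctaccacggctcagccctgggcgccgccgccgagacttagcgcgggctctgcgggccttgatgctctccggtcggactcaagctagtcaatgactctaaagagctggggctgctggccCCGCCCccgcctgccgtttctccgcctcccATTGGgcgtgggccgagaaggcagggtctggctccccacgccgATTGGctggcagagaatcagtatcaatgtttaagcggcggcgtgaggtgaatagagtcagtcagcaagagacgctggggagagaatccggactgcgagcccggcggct
Pcdh19 (chrX:133688944-133689243, minus strand): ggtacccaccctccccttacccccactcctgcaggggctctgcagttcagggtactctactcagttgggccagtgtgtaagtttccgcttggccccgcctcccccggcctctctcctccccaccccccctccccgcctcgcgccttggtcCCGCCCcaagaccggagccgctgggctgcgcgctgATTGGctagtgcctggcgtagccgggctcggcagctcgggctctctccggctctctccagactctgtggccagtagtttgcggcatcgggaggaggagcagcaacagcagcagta
Pcdh8 (chr14:79771263-79771562, minus strand): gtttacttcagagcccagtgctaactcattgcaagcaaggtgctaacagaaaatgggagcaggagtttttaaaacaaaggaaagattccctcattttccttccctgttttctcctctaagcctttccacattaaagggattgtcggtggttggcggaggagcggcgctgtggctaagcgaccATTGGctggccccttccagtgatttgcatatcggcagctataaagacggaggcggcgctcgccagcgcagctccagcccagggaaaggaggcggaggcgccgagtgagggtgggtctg

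CCAAT was found 2 times in the Pcdh17 window, each read as ATTGG, and 1 time each in those of Pcdh19 and Pcdh8. GGGCGG was found 1 time each in Pcdh17 and Pcdh19 and was not in the Pcdh8 window. The windows held 26 CG pairs in Pcdh17, 18 in Pcdh19 and 14 in Pcdh8, where the median over 32851 RefSeq windows outside chromosome 18 was 7. Of those windows, 37.4% held CCAAT and 35.7% held GGGCGG. In the windows of the other delta-2 genes, Pcdh10 had 2 CCAAT, 1 GGGCGG and 24 CG pairs, and Pcdh18 had 1 CCAAT, 1 GGGCGG and 23 CG pairs. The table held windows for 22 members, of which 15 had CCAAT, 9 had GGGCGG and 3 had CAGGTG, an E-box sequence found in 20.2% of all windows. These letters are a description of the windows, and both motifs were also in the windows of Pcdh10 and Pcdh18, which did not pass the test.

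Both delta-1 protocadherins above 1 CPM were higher in KO. Delta-1 proteins carry a cytoplasmic motif that binds protein phosphatase 1. Pcdh7 had 19.3, 28.1 and 23.3 CPM in WT against 41.6, 40.4 and 38.7 CPM in KO. All KO libraries were above WT, with a log2 fold change of 0.77 (standard error 0.10, adjusted p = 2.23e-13). Of the exonic bases of Pcdh7, 78.9% belong to no other annotated gene. The lncRNA 4932441J04Rik overlaps Pcdh7 on the opposite strand and had 0, 6 and 8 counts in WT and 21, 9 and 13 in KO. Pcdh9 had 11.5, 12.4 and 14.3 CPM in WT against 18.8, 16.7 and 16.7 CPM in KO, a log2 fold change of 0.44 (standard error 0.12, adjusted p = 0.00567) that missed the threshold without KO1 (0.38 to 0.54 over the 6 fits). The summed FPKM of delta-1 genes was 4.13 ± 0.494 in WT and 6.39 ± 0.264 in KO. Pcdh1 and Pcdh11x had a mean below 1 CPM over the 6 libraries and did not pass the test, and the same held for Pcdh12, Pcdh15 and Pcdh20 outside the delta group. Pcdh20 had 17, 12 and 27 counts in WT and 13, 12 and 6 counts in KO, with an adjusted p of 0.156.

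The alpha cluster was almost silent except for its last gene. Pcdhac2, a C-type isoform with its own promoter at the downstream end of the cluster, lies on chromosome 18 (37276556 to 37320710, plus strand, GRCm39). It had 63, 63 and 124 counts in WT and 42, 16 and 21 in KO. Scaled to library size, the KO libraries were all below WT. The level was 5.36 ± 1.14 CPM in WT against 1.42 ± 0.519 CPM in KO, a log2 fold change of -1.90 (standard error 0.25, adjusted p = 3.94e-12). The log2 fold change was -2.24 to -1.69 with each library left out, and the gene was called under every alternative run.

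Of the other 13 alpha genes, 6 had counts, all under 1 CPM, and 7 had none. The alpha genes share their constant exons, so that only 51.4% of the exonic bases of Pcdhac2 belong to no other annotated gene (GENCODE M21), against a cluster median of 46.4%. Reads in the constant exons alone do not tell these genes apart. The summed FPKM of the alpha cluster was 0.996 ± 0.162 in WT and 0.278 ± 0.0869 in KO. The lncRNA Gm10544 overlaps Pcdhac2 on the opposite strand and had 6, 3 and 10 counts in WT and 2, 1 and 6 in KO. Of 94 genes with counts within 1 Mb of Pcdhac2, which include beta and gamma genes, none was called.

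All 22 beta genes had counts, 8 of them at 1 CPM or more. Beta genes share no constant exon, and the median share of exonic bases that belong to a gene alone was 100%. Pcdhb17 was at 4.0, 6.42 and 5.80 CPM in WT against 3.30, 3.61 and 3.81 CPM in KO. It was the only beta gene at an adjusted p below 0.05 (0.0418, log2 fold change -0.61, standard error 0.21), and it kept that without WT1 but with no other library left out (-0.77 to -0.48), nor with DESeq2 or filterByExpr. Pcdhb22, the highest of the cluster, was at 10.7 ± 0.740 CPM in WT against 8.65 ± 0.655 CPM in KO, with an adjusted p of 0.236.

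The remaining 6 beta genes above 1 CPM lay close together in both genotypes. Pcdhb19 was at 2.57 ± 0.538 CPM in WT against 2.67 ± 0.770 CPM in KO. Pcdhb16 was at 2.34 ± 0.550 and 1.84 ± 0.134 CPM, and Pcdhb18 at 1.84 ± 0.692 and 1.45 ± 0.827 CPM. None of these 3 passed the test. Pcdhb20 was at 1.72 ± 0.480 and 1.51 ± 0.473 CPM, Pcdhb21 at 1.63 ± 0.118 and 1.42 ± 0.615 CPM, and Pcdhb5 at 1.02 ± 0.254 and 1.05 ± 0.0716 CPM, and these did not pass either. The other 14 beta genes had counts but stayed below 1 CPM, between 0.00787 and 0.510 CPM.

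Position in the beta cluster went with level in both genotypes. The first 11 genes, Pcdhb1 to Pcdhb11, summed to 0.921 ± 0.190 FPKM in WT and 0.787 ± 0.156 FPKM in KO, and 1 of them reached 1 CPM. The last 11, Pcdhb12 to Pcdhb22, summed to 4.90 ± 0.443 FPKM in WT and 4.01 ± 0.339 FPKM in KO, and 7 of them reached 1 CPM. Spearman's rho between order and mean FPKM over the 22 genes was 0.61 in WT and 0.63 in KO. It was 0.35 and 0.56 over the 14 alpha genes and 0.35 and 0.27 over the 21 gamma genes. Genes of a cluster share libraries, neighbouring sequence and, outside beta, exons, so these values describe the clusters and carry no test.

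**Figure D4:**
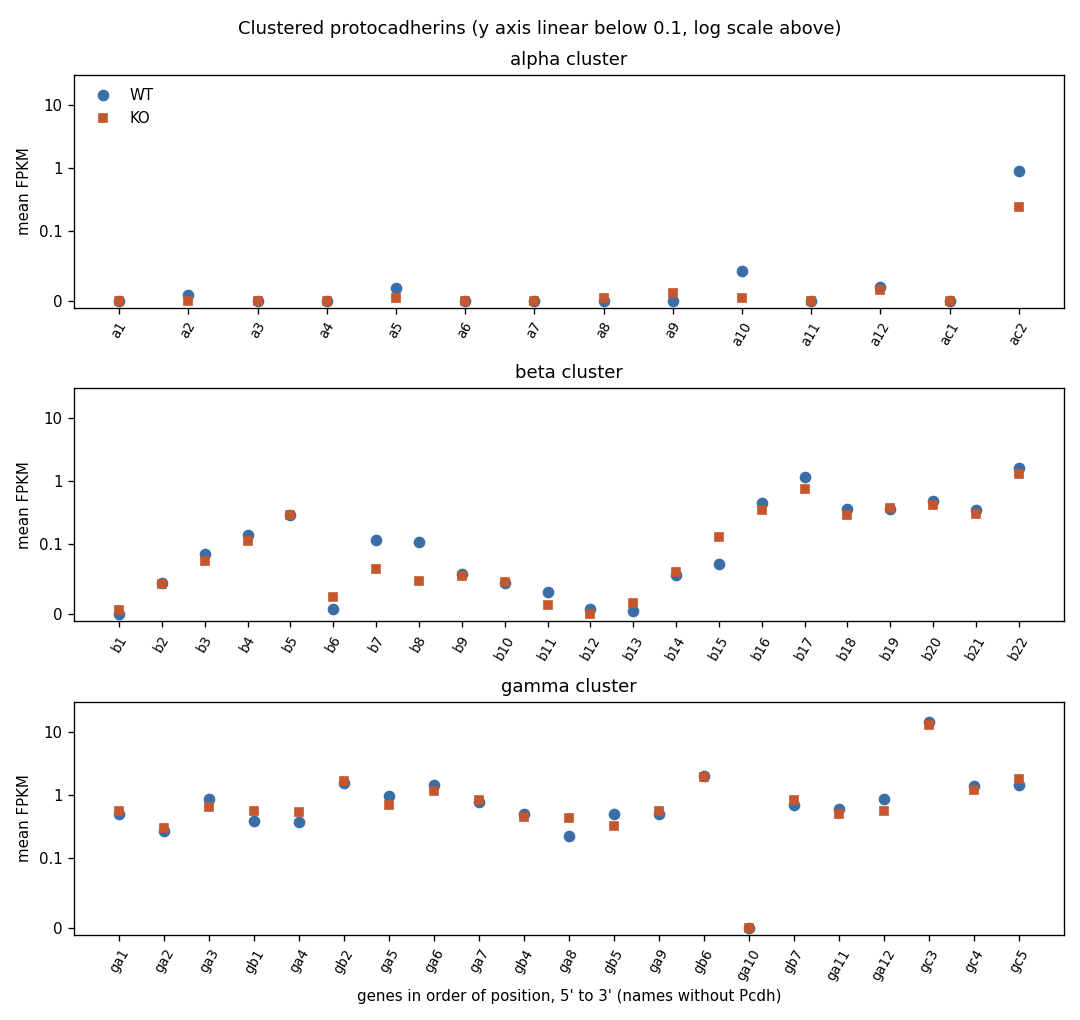
Mean FPKM (y axis, linear below 0.1 and logarithmic above) of each clustered protocadherin in WT (circles) and KO (squares), in the order of the genes along chromosome 18 (x axis). Pcdhac2 stands alone at the end of the alpha cluster, the last 7 beta genes are above most of the earlier ones, and Pcdhgc3 is highest in the gamma cluster.

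The gamma cluster was broadly used, with 20 of 21 genes above 1 CPM. Pcdhgc3, a C-type gamma gene that is widely expressed outside the nervous system, was highest, at 63.9, 93.8 and 82.2 CPM in WT against 68.7, 71.7 and 75.5 CPM in KO. The KO values lay within the WT range and the log2 fold change was -0.16 (standard error 0.08, adjusted p = 0.272). The other C-type genes were Pcdhgc5, at 10.9 ± 2.49 CPM in WT against 13.8 ± 1.07 CPM in KO, and Pcdhgc4, at 7.77 ± 2.75 and 6.70 ± 1.24 CPM. Neither passed the test with all libraries. Pcdhgc5 was past the threshold without WT3 (log2 fold change 0.49, adjusted p = 0.0224), and Pcdhgc4 was past it without WT1 (-0.47).

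Of the gamma A and gamma B genes, only Pcdhga12 had an adjusted p below 0.05. It had 4.78, 5.56 and 6.71 CPM in WT against 3.54, 3.79 and 3.62 CPM in KO, a log2 fold change of -0.65 (standard error 0.21, adjusted p = 0.0207), which missed the threshold with DESeq2 and without WT3, KO1 or KO3 (-0.76 to -0.51). Pcdhga8 went the other way, with 15, 6 and 29 counts in WT and 48, 34 and 29 in KO, but its adjusted p was 0.0793. Without WT3 it was called higher, at 1.37.

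The other gamma A genes did not pass the test. Pcdhga6 was at 6.68 ± 1.39 CPM in WT against 5.53 ± 0.783 CPM in KO, Pcdhga5 at 4.44 ± 1.14 and 3.24 ± 0.510 CPM, and Pcdhga3 at 4.08 ± 1.86 and 3.03 ± 0.522 CPM. Pcdhga11 was at 2.89 ± 1.53 and 2.33 ± 0.675 CPM. These 4 had lower means in KO. Pcdhga7 was at 4.0 ± 0.735 CPM in WT against 4.35 ± 0.183 CPM in KO, Pcdhga9 at 2.76 ± 0.994 and 3.05 ± 0.519 CPM, and Pcdhga1 at 2.69 ± 0.328 and 2.97 ± 0.953 CPM. Pcdhga4 was at 1.74 ± 0.370 and 2.56 ± 0.549 CPM, and Pcdhga2 at 1.27 ± 0.560 and 1.39 ± 0.0982 CPM. Their means were higher in KO by less than the test could separate.

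No gamma B gene passed the test. Pcdhgb6 was at 9.32 ± 1.22 CPM in WT against 8.93 ± 0.993 CPM in KO, Pcdhgb2 at 7.64 ± 1.31 and 8.21 ± 1.35 CPM, and Pcdhgb7 at 3.23 ± 0.190 and 3.85 ± 0.490 CPM. Pcdhgb5 was at 3.38 ± 0.921 and 2.19 ± 0.613 CPM, Pcdhgb4 at 2.85 ± 1.67 and 2.57 ± 0.372 CPM, and Pcdhgb1 at 2.26 ± 0.377 and 3.26 ± 0.911 CPM. Over the whole gamma cluster the summed level was 23.6, 34.1 and 32.8 FPKM in WT and 28.5, 27.7 and 29.1 FPKM in KO, so that WT1 was the low library, as it was for Pcdhgc3. Pcdhga10 had no count in any library, and none of its exonic bases belonged to it alone, where the median of the gamma genes was 54.8% and that of Pcdhgc3 was 33.1%.

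Groups of non-members that act with cadherins were examined in the same fit. Of 25 catenins and junction partners, 24 had counts and 2 were called, both higher, where 1.75% of all genes tested were called higher. At an adjusted p below 0.05, 6 were higher and none lower, against 4.97% and 4.03% of all genes tested. The shares were 9.08% and 7.88% over all genes with at least 1 CPM, a level reached by 22 of the 24 but not by Pkp3. Plekha7, a protein of the zonula adherens, had 11, 27 and 33 counts in WT and 73, 60 and 45 in KO (log2 fold change 1.09, standard error 0.29, adjusted p = 0.00299). Pkp3, a plakophilin of desmosomes, had 2, 5 and 6 counts in WT and 25, 14 and 17 in KO (1.83, 0.57, adjusted p = 0.0187). Both calls were lost with the test against a 2-fold change. The call of Plekha7 was also lost without WT1, at 0.84, and that of Pkp3 with DESeq2 and without KO1 or KO3 (1.59 to 2.01 over the 6 fits). The catenins that carry classical cadherins did not pass: Ctnnb1 (beta-catenin) was at 565 ± 20.4 CPM in WT against 583 ± 17.8 CPM in KO, and Ctnna1 (alpha-catenin) at 435 ± 10.5 and 465 ± 8.71 CPM. Nectin1, an adhesion receptor of the immunoglobulin family that joins cadherin junctions, was at 26.7 ± 3.46 CPM in WT against 42.3 ± 2.31 CPM in KO, a log2 fold change of 0.66 (adjusted p = 2.95e-10). The others of the 6 were Ajuba (0.34), Ctnnal1 (0.41) and Nectin3 (0.28).

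Of 28 other genes of the cadherin superfamily, 27 were in the table, 17 had counts and none was called by edgeR or by DESeq2, with 8 at an unadjusted p below 0.05, where 17.9% of all genes tested and 30.8% of those with at least 1 CPM were. At an adjusted p below 0.05, 4 were higher in KO and none lower, against 4.97% and 4.03% of all genes tested. These 4 were among the 6 list genes with at least 1 CPM, a level at which the shares were 9.08% and 7.88%. Clstn1 (calsyntenin 1) was at 123 ± 6.09 CPM in WT against 167 ± 2.25 CPM in KO. The planar polarity pair Dchs1 and Fat4, a ligand and its receptor, had log2 fold changes of 0.36 and 0.37, and the receptor tyrosine kinase Ret had 0.75. Fat1, the highest of the list, was at 950 ± 218 CPM in WT against 869 ± 12.3 CPM in KO and did not pass.

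Of 13 transcription factors linked to the epithelial-mesenchymal transition, 12 had counts and none was called by edgeR or by DESeq2. Many of them repress E-cadherin, but the list is of mixed direction and also holds Grhl2, an epithelial marker. At an unadjusted p below 0.05 were 6 (17.9% of all genes tested, and 30.8% of those with at least 1 CPM, as 9 of the 12 were). Zeb1 rose from 54.5 ± 6.90 to 75.4 ± 2.71 CPM (log2 fold change 0.46, adjusted p = 5.06e-07) and Zeb2 fell from 104 ± 4.39 to 80.6 ± 4.22 CPM (-0.37, adjusted p = 4.88e-05). Prrx1, the highest of the list, was at 301 ± 4.11 CPM in WT against 309 ± 5.41 CPM in KO. Of 18 regulators of the clustered protocadherins, such as CTCF, cohesin subunits and DNA methyltransferases, all had counts and none was called by either tool. The unadjusted p was below 0.05 for 1 of them, the cohesin subunit Stag1, at 142 ± 6.68 CPM in WT against 121 ± 1.91 CPM in KO (adjusted p = 0.0236). Dnmt1 was at 533 ± 47.7 and 548 ± 8.81 CPM, and Rad21 at 408 ± 6.31 and 408 ± 8.88 CPM.

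Some markers of cells other than fibroblasts were also called between the genotypes, where 1.75% of all genes tested were called higher and 0.665% lower. Of 9 epithelial markers, Krt8 and Krt18 were called higher, and Krt19 was higher by less than 2-fold (log2 fold change 0.85). Epcam, Cldn4, Cldn7, Grhl2 and Ocln did not pass the test, the last of them with a log2 fold change of -0.88. The summed level of the epithelial markers was 3.92 to 5.56 CPM in WT and 12.3 to 13.6 CPM in KO, with Esrp1 at 0 in all libraries. Of 5 mesothelial markers, Msln was called higher, with a sum of 2.95 to 3.49 CPM in WT and 43.2 to 48.7 CPM in KO, nearly all of it Msln. Wt1 had 5, 4 and 2 counts in WT and 4, 5 and 7 in KO, Upk1b had 3, 2 and 0 in WT and none in KO, Upk3b had 2 counts in KO2 alone, and Lrrn4 was at 0. Of 5 neural markers, Stmn2 and Sox2 were called higher, Tubb3 was higher by less than 2-fold (0.67), and Elavl3 (-0.47) and Elavl4 (0.36) did not pass, with a sum of 32.1 to 36.4 CPM in WT and 110.8 to 114.9 CPM in KO. No gene was called among 7 endothelial markers (Tie1, Cldn5 and Emcn at 0), 5 Schwann cell markers (Sox10 and Foxd3 at 0), 5 skeletal muscle markers and 4 blood markers (Hbb-bs at 0). The part of these cells in the levels of Pcdh17, Cdh1, Cdh6, Cdh17 and Cdh18 was not tested.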

How the data were processed

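Bulk RNA-seq of 3 WT and 3 KO MEF libraries was examined, with groups taken from the sample titles. Per the paper's methods and the submitters' processing notes, the authors aligned read pairs with HISAT2 (2.0.5) and counted reads per gene with featureCounts (1.5.0-p3), and deposited raw counts and FPKM values for 55565 genes. Strand settings of the counting are not given in the sources used here. The notes name GRCm38, the methods name Ensembl 106, and the coordinates in the deposited tables are those of GRCm39. RefSeq windows (GRCm38.p6) and GENCODE M21 exons were used only for sequences and exon sharing, and the 92 members had the same exonic length in M21 as in the deposited tables.

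Any gene with a count in at least 1 library entered edgeR 4.0.16 (quasi-likelihood fit, TMM factors, no covariates, limma 3.58.1, R 4.3.3) with Benjamini-Hochberg adjustment over all genes. A gene was called at an absolute log2 fold change above 1 and an adjusted p below 0.05. The prior degrees of freedom were infinite, so each gene took its spread from the trend, and a gene that varies more than the trend gets a p that is too small. CPM were scaled with the TMM totals, and levels between genes were compared by the authors' FPKM. Values after ± are SDs. Standard errors were worked back from the edgeR test, as the absolute log2 fold change over the square root of its F statistic. They and the intervals drawn from them hold no information beyond the fold change and its p. Alternatives were DESeq2 1.42.0, a test against a 2-fold change, RLE factors, filterByExpr, the replicate number as a block, TMM-scaled counts per kilobase in place of FPKM, and each library left out. Tables and plots were made in Python 3.11.15 with NumPy 2.4.6, SciPy 1.17.1, matplotlib 3.10.9 and pandas 2.3.3.

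The members, classes and gene lists were chosen with earlier results of these data known. Each called member, each member averaging 1 CPM or more and each called list gene was named, with up to 4 uncalled genes of highest level per list. Some uncalled list genes at an adjusted p below 0.05, and some members below 1 CPM that define a class or whose genotypes did not overlap, were named after their values were seen. CUT&Tag and mass spectrometry were not analysed here.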

Additional observations from a re-analysis of the deposited data

How the results depend on the processing

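Pcdh17 stayed called higher and Cdh4 and Pcdhac2 called lower under every alternative run. The count of members called higher went from 3 to 1 with DESeq2, with a test against a 2-fold change, with filterByExpr and with the replicate number as a block, and was 1 to 3 with each library left out; Cdh6 and Cdh17, both at 5 counts or fewer in each WT library, were the calls lost. The cause was not tested beyond those counts. The test against a 2-fold change called 157 genes higher and 43 lower over all genes. Catenins and junction partners called went from 2 to 1 with DESeq2 and to 0 with the 2-fold test, and were 1 to 2 with a library left out. Of other superfamily genes, 1 was called with the replicate block and 0 to 1 with a library left out. No pairing by replicate number was seen: deviations of same-numbered libraries correlated at -0.025, -0.016 and 0.036. With 3 libraries per genotype, these values cannot show that the libraries were unpaired. With each library left out, the log2 ratio of summed FPKM was -0.43 to -0.39 for classical cadherins, 0.074 to 0.22 for delta protocadherins and -0.27 to -0.059 for clustered protocadherins, and TMM-scaled counts per kilobase gave -0.40, 0.16 and -0.14. Shares cannot change with a factor per library, so this scaling says nothing of them. Leaving out WT1 put Pcdh18, Pcdhgc3, Pcdhgc4, Pcdhga5 and Pcdhga3 past an adjusted p of 0.05, and leaving out WT3 did so for Pcdhgc5 and Pcdhga8. Cdh26 was called lower without KO1, and Cdh1 and Pcdhga8 were called higher without WT1 and WT3, in that order. The sign of some low genes turned with a library left out, with log2 fold changes of -0.13 to 0.26 for Pcdhb19, -0.44 to 0.046 for Pcdhb20, -0.61 to 0.00019 for Pcdhb21, -0.14 to 0.23 for Pcdhb5, -0.16 to 0.012 for Pcdhgb6, -0.018 to 0.26 for Pcdhgb2, -0.083 to 0.39 for Pcdhga9, -0.16 to 0.28 for Pcdhga1, -0.47 to 0.34 for Pcdhgb4, -0.65 to 0.13 for Pcdhga11 and -0.17 to 0.47 for Pcdhga2. Over 48 named genes, 454 values kept direction and side of the threshold, 50 lost the threshold, 8 gained it and 14 turned sign. Depth limits the members below 1 CPM, where a few counts decide a level.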
